A study of Mus musculus with 9 samples.

Results

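Collagens, laminins and integrins are the genes for the matrix that surrounds epithelial cells and for the receptors that hold cells to it. They were taken as the protein-coding genes of the deposited table whose symbols name a collagen chain (Col), a laminin chain (Lama, Lamb, Lamc) or an integrin subunit (Itga, Itgb). Described here are 80 of 22046 protein-coding genes: 44 collagen, 10 laminin, 18 integrin alpha and 8 integrin beta genes. Of these, 37 had enough counts to be tested (15 collagen, 6 laminin, 10 integrin alpha and 6 integrin beta genes), and the other 43 stayed at or below 1.09 CPM (counts scaled to a common library size) in each of the 9 libraries.

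The libraries came from 4T1 cells, an established carcinoma line from a mouse mammary tumour. Control cells were kept in plain medium. The Cu_TCPP cells were given the material Cu-TCPP(Fe)-PEG, and the Au_TCPP cells its gold-bearing counterpart, Au/Cu-TCPP(Fe)-PEG. Polyadenylated RNA was profiled from 3 libraries of each group, with a treatment of 24 h. The labels describe the first material as one that consumes GSH (glutathione) and the gold-bearing one as having that activity together with a glucose-oxidase-like one. All 3 groups were the same parental line in high-glucose medium with serum. The doses are not given in the sources used here, and nothing says that the libraries of a group came from separate cultures, so the p-values measure the spread between these libraries, which may be technical.

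Laminins are heterotrimers of an alpha, a beta and a gamma chain that polymerise into the sheet of the basement membrane, and collagen IV forms a network bound to it. Collagens are triple helices that need hydroxylation and chaperoning in the endoplasmic reticulum before they are secreted. Integrins are alpha-beta pairs at the cell surface: Itgb1 pairs with most of the alpha chains present here, Itga6 with Itgb4 holds epithelial cells at hemidesmosomes, and Itgav with Itgb5 binds RGD-bearing matrix proteins. In carcinoma cells these genes are known for attachment, spreading and invasion.

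Library totals were 15477324 to 17494776 counts. The members took 1.08% ± 0.0173 of all counts in Control, 0.843% ± 0.0346 with Cu_TCPP and 0.484% ± 0.00781 with Au_TCPP (SD, n = 3 each), and the groups did not overlap. Counts of the Au_TCPP libraries also came from shorter genes. The mean length of the gene behind a count was 4549 to 4669 nt there, against 5601 to 5754 nt in the other 6 libraries. Their TMM scaling factors were 0.792803 to 0.888516 against 1.06795 to 1.11866. RNA quality was not tested, so its part in the Au_TCPP values of long genes cannot be told apart from changed expression. Replicate 2 of Au_TCPP stood apart from its group, with 2.37% mitochondrial counts where the other 8 libraries had 1.09% to 1.47%. Of 7 epithelial markers 6 were testable, and their summed level was 2810 to 3050 CPM in Control, 2730 to 3050 with Cu_TCPP and 4140 to 5030 with Au_TCPP. Lymphocyte markers summed to at most 1.02 CPM in any library, and of 9 macrophage genes Adgre1, C1qa and C1qb were at 0, 6 stayed under 1 CPM and Cd68, Cd14 and Mrc1 were tested.

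Levels below are CPM scaled by TMM factors, and levels are compared between genes only per kilobase of gene length (RPKM, computed here). By that measure the members with the most RNA in Control were Itga3 (331.8 ± 7.68 RPKM), a laminin-binding alpha chain, Lama5 (187 ± 3.86), the broadly made laminin alpha chain, and Itgb1 (135 ± 5.77; SD, n = 3). These were followed by Lamc1 (74.0), Lamb1 (70.4), Itgb5 (69.5), Col4a2 (62.5), Col18a1 (62.3) and Col4a1 (62.2), among which each neighbouring pair from Lamb1 to Col4a1 overlapped. With Cu_TCPP the order at the top was Itga3, Itgb1, Lama5 and Lamc1, with no overlap between neighbours. With Au_TCPP it was Itgb1 (221 ± 31.9), Itga3 (131 ± 9.59), Lamb3 (75.6 ± 15.6) and Lama5 (50.5 ± 9.33 RPKM), again with no overlap between neighbours.

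The stretches before the gene starts of 4 members, each with its start in the RefSeq table at the deposited gene start and with no exon in the stretch, are shown because 3 belong to genes that fell with both materials and 1 to a gene that rose. They are RefSeq sequences of GRCm38.p6, the 250 bases before the start, 5′ to 3′ on the gene's strand, with each GC box (GGGCGG or its reverse complement, the letters bound by Sp family factors) in capitals.
Lama5 (chr2:180225860-180226109, strand -): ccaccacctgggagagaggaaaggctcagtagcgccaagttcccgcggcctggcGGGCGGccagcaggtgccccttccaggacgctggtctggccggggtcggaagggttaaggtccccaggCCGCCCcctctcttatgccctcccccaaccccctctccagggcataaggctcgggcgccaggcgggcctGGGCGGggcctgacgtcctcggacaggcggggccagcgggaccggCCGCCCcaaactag
Itgb5 (chr16:33829415-33829664, strand +): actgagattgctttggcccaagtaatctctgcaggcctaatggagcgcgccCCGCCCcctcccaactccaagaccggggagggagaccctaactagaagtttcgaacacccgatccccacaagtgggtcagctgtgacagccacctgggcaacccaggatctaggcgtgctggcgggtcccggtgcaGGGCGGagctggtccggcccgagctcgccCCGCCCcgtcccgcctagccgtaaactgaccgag
Col8a1 (chr16:57754738-57754987, strand -): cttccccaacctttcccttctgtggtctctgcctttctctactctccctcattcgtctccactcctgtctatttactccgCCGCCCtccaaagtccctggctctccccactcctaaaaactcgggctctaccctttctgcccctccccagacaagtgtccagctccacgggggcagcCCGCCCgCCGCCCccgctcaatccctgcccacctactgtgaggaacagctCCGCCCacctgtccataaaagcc
Itgb1 (chr8:128685404-128685653, strand +): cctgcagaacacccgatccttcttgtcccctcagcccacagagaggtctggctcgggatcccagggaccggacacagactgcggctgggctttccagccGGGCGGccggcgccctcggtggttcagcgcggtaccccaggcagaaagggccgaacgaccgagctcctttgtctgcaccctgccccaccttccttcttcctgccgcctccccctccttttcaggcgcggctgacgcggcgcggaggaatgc
Lama5 and Col8a1 each held 4 GC boxes, Itgb5 held 3 and Itgb1 held 1. Windows from 250 bases before to 50 after the start were matched for 27 of the 37 tested members. Of these 18 held a GC box, against 35.7% of the 32851 windows of the table. The windows of the table were not limited to tested genes, so the sets are unlike and no enrichment is drawn from them. The box was in 13 of the 18 windows of genes that fell with Au_TCPP, in 3 of 4 of those that rose and in 2 of 5 of those that did not pass, so genes of both directions carried it. Its number varied within a direction, and the 4 stretches shown do not represent theirs. Col4a1 and Col7a1, which fell with both materials, held 1 box each and Itga1 held 0, while Itga5, which rose with Au_TCPP, held 2. CCAAT was in 8 of the 27 windows (37.4% of all windows), TATAAA in 2 (13.6%) and the AP-1 letters TGANTCA in 1 (7.81%), with both strands searched. Col4a1 and Col4a2 are read in opposite directions from starts 21 nt apart, so their windows share 78 bases, and the starts of Col4a5 and Col4a6 lie 1309 nt apart.

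With the copper-only material, 21 of the 37 tested members fell and 5 rose against Control (edgeR, adjusted p under 0.05), with 11 not passing. Over all 13915 genes tested, 21.2% fell and 19.2% rose. The median log2 fold change of the members was −0.61, where that of all genes was −0.01. In bulk RNA, fewer cells that make a transcript and less of it per cell cannot be told apart. Collagens accounted for 11 of the genes that fell and for none of those that rose. The count of 5 that rose was 2 without Cu_TCPP replicate 1 and 3 without Control replicate 2.

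With the gold-bearing material, 23 of the 37 fell and 6 rose, with 8 not passing, against 34.7% of all genes falling and 34.4% rising. The members' median was −0.73, and that of all genes −0.01. In this comparison log2 fold change followed gene length: the median over all genes was 0.67 for those up to 1000 nt and −0.60 for those over 12000 nt, and the tested members were long (median 6831 nt, range 2770 to 18599, against 3861 nt for all tested genes). With gene length taken out by an offset fitted across all genes, 18 members fell and 8 rose (34.4% and 32% of all genes), and their median was −0.33. With library totals in place of TMM factors the median of all genes moved to −0.43 and 27 members fell and 5 rose, with Itga5 turning to −0.15. Without Au_TCPP replicate 2 the counts were 25 fallen and 6 risen of 39 tested. Of all genes, 9724 were called in either direction with library totals and 10109 without that library. With TMM factors and all libraries 9611 were. The shares of all genes by direction were not computed for these settings, so the member counts cannot be set against them.

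Between the materials, 14 members were lower and 10 higher with Au_TCPP than with Cu_TCPP, against 31.3% and 34.6% of all genes, with a median of −0.16 (0.04 for all genes). This split turned with the length offset, to 8 lower and 16 higher (31% and 33.1% of all genes) and a median of 0.13. With library totals it was 19 lower and 6 higher, and without Au_TCPP replicate 2 it was 19 lower and 13 higher of 39. Of all genes, 9356 and 9622 were called in either direction under these settings, against 9176 with TMM factors and all libraries. Their shares by direction were not computed. The comparisons against Control share the 3 Control libraries, so their values are set side by side and no overlap is drawn from them.

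**Figure D1:**
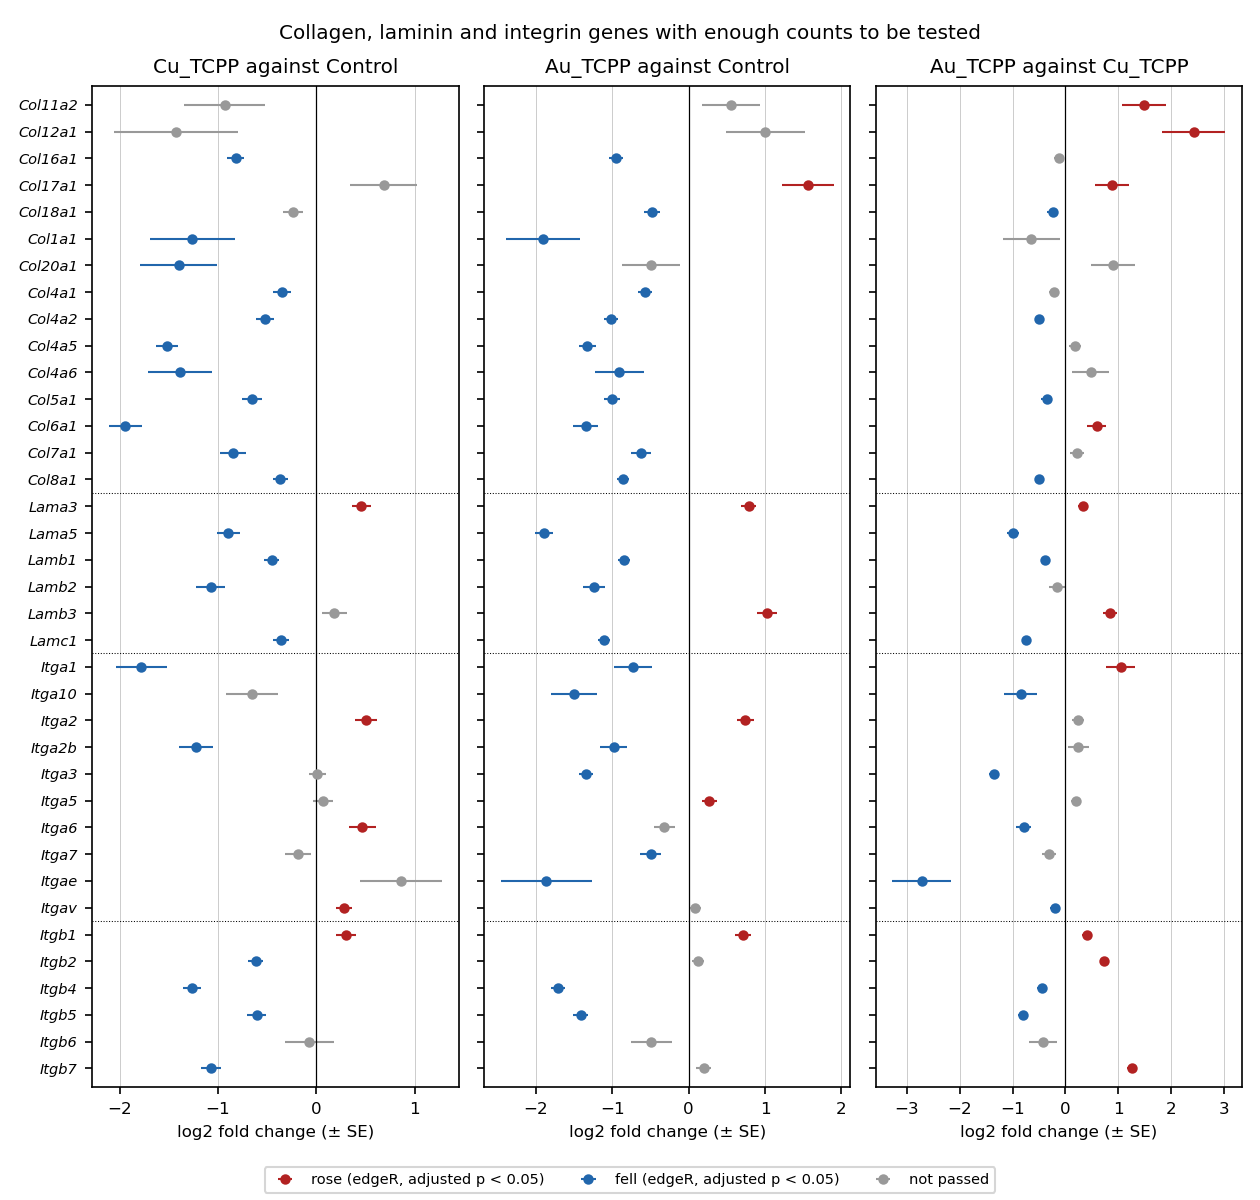
Log2 fold change (x axis, ± SE) of the 37 tested members in the 3 comparisons, by family from collagens at the top to integrin beta chains at the bottom; red and blue mark genes that rose or fell by edgeR (adjusted p under 0.05) and grey those that did not pass. Collagens lie to the left of 0 in both comparisons with Control, apart from Col17a1 in both and Col11a2 and Col12a1 with Au_TCPP, while laminins and integrins lie on both sides.

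Laminin chains moved in opposite directions. Lama5, Lamb1, Lamb2 and Lamc1 fell with both materials, while Lama3 and Lamb3, an alpha and a beta chain known from the laminin of epithelial anchoring, rose with Au_TCPP, and Lama3 alone of them passed with Cu_TCPP. The described laminins had 4 fallen and 1 risen of 6 tested with Cu_TCPP and 4 fallen and 2 risen with Au_TCPP, and the second count was the same with the length offset. These were 66.7% fallen and 16.7% risen with Cu_TCPP, and 66.7% and 33.3% with Au_TCPP. Of all genes 21.2% fell and 19.2% rose with the first material, and 34.7% and 34.4% with the second. The shares of laminins that rose were thus near those of all genes.

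Lama5 was the laminin with the most counts. It stood at 2098, 2107 and 2178 CPM in Control, 1078, 1194 and 1163 with Cu_TCPP and 453, 623 and 648 with Au_TCPP. The 3 groups did not overlap. Against Control it fell by 0.89 (SE 0.12) on the log2 scale with Cu_TCPP (edgeR adjusted p = 4.1e-05) and by 1.89 (SE 0.12) with Au_TCPP (5.3e-09), and it was lower with Au_TCPP than with Cu_TCPP by a log2 fold change of −0.99 (2.9e-06). With the length offset the Au_TCPP value was −1.44.

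Lamc1, the gamma chain most widely used in laminins, showed the same order: 604 to 619 CPM in Control, 466 to 487 with Cu_TCPP and 269 to 300 with Au_TCPP. Lamb1, the beta chain that pairs with it, went from 683 to 719 CPM in Control to 493 to 523 and then to 369 to 402 CPM. Both fell with each material (edgeR adjusted p = 0.0023 and 0.00045 with Cu_TCPP, 2.1e-08 and 3.1e-07 with Au_TCPP). The further step of Lamb1 from Cu_TCPP to Au_TCPP, −0.38 on the log2 scale, was 0.00 with the length offset. Lamb2, the other beta chain of such laminins, was 129, 134 and 131 CPM in Control, 60.8, 65.1 and 61.5 with Cu_TCPP and 45.6, 74.9 and 47.0 with Au_TCPP. Its Au_TCPP replicate 2 lay above the Cu_TCPP libraries and the other Au_TCPP libraries below them; the difference between the materials was −0.16 (edgeR adjusted p = 0.35), −0.47 without that library (1.5e-05) and −0.52 with library totals (0.026).

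Lama3 was 85.1, 92.5 and 96.0 CPM in Control, 123, 126 and 126 with Cu_TCPP and 176, 136 and 160 with Au_TCPP. The groups were in this order without overlap, and it rose by 0.46 (SE 0.10) with Cu_TCPP (edgeR adjusted p = 0.0017) and by 0.79 (SE 0.10) with Au_TCPP (4.2e-06). Its difference between the materials was 0.33, and −0.05 with library totals. Lamb3 was 236, 250 and 250 CPM in Control, 255, 300 and 279 with Cu_TCPP and 564, 381 and 555 with Au_TCPP. Every Cu_TCPP library lay above every Control library, but the groups came close and the change did not pass (log2 fold change 0.18, edgeR adjusted p = 0.28). In the fit without Au_TCPP replicate 2 it passed (0.19, edgeR adjusted p = 0.02). The Au_TCPP libraries lay above both groups, 2.04-fold higher than Control (edgeR adjusted p = 5.1e-06). In both of these genes replicate 2 was the lowest Au_TCPP library. Lama1, Lama2, Lama4 and Lamc3 were not tested.

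**Figure D2:**
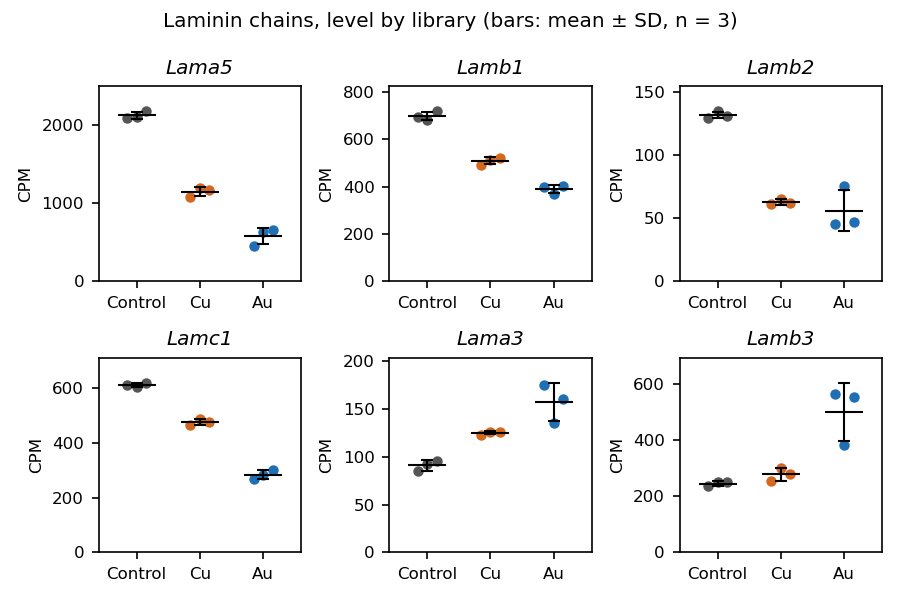
Level of 6 laminin chains in each library (points; y axis CPM from 0; bars are mean ± SD, n = 3) for Control, Cu_TCPP (Cu) and Au_TCPP (Au). Lama5, Lamb1 and Lamc1 step down through the groups and Lama3 steps up on this TMM scale (not between the materials with library totals), while Lamb3 is raised in the Au_TCPP libraries.

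Shares of the chains within a class were computed per kilobase, which leaves library scaling out. Lama3 made up 4.34% ± 0.193 of the tested laminin alpha RNA in Control, 10.4% ± 0.38 with Cu_TCPP and 22.9% ± 5.51 with Au_TCPP (SD, n = 3), the rest being Lama5. Lamb3 made up 28.7% ± 0.635, 40.5% ± 1.42 and 60.5% ± 5.79 of the beta RNA. In both classes every Cu_TCPP library lay above every Control library and every Au_TCPP library above every Cu_TCPP library; the exact two-sided permutation p was 0.1 for each pair of groups, the smallest that 3 against 3 allows. Lama3 and Lama5 (10745 and 11388 nt) are nearly equal in length, while Lamb3 (6612 nt) is shorter than Lamb1 (9917 nt), and the part of length in the Lamb3 share was not tested.

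**Figure D3:**
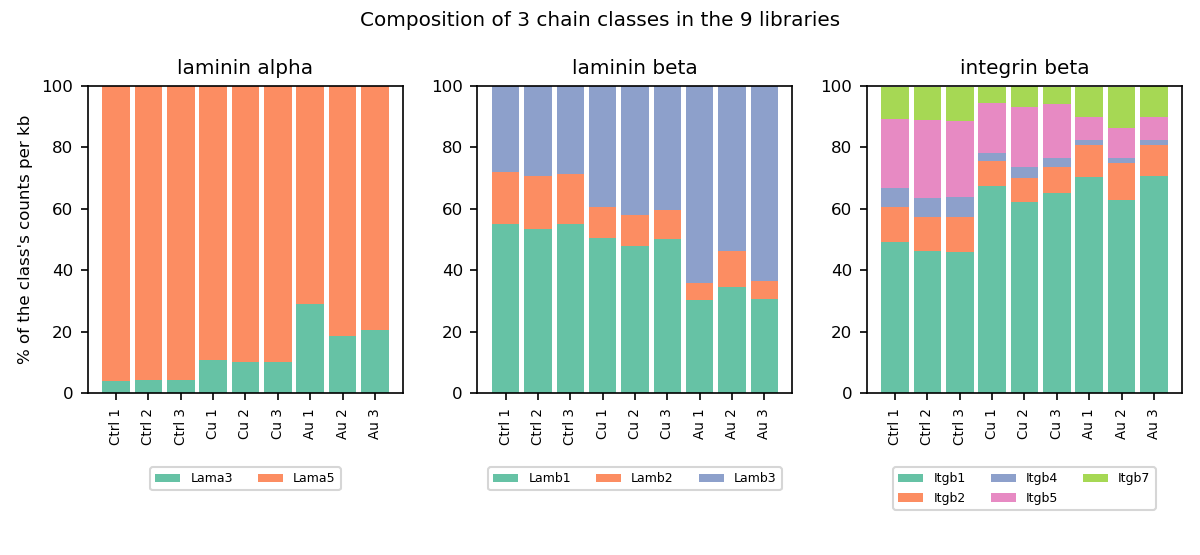
Share of each chain in the summed counts per kilobase of its class (y axis, percent) in the 9 libraries, for the tested laminin alpha and beta chains and the integrin beta chains above 5 CPM. Lama3 and Lamb3 widen from Control to Cu_TCPP to Au_TCPP, and Itgb1 takes 47.2% of the integrin beta RNA in Control, 65.0% with Cu_TCPP and 68.0% with Au_TCPP.

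Collagen RNA in 4T1 cells was mostly that of the basement membrane and of nonfibrillar types. The summed collagen level was 2088 to 2182 CPM in Control, 1412 to 1679 with Cu_TCPP and 1229 to 1297 with Au_TCPP. Of the 15 tested collagens, 11 fell and none rose with Cu_TCPP, and 11 fell and 1 rose with Au_TCPP (8 fell and 2 rose with the length offset). Each 11 was 73.3% of those tested, where 21.2% of all genes fell with Cu_TCPP and 34.7% with Au_TCPP. Between the materials 4 were lower and 4 higher (2 and 7 with the offset). These were 26.7% each, against 31.3% and 34.6% of all genes, and 13.3% and 46.7% with the offset, against 31% and 33.1%. Markers of other matrix-making cells moved in the same libraries. Of 8 fibroblast markers, 7 stayed under 1 CPM, with Pdgfrb, Lum and Thy1 at 0, and the list summed to 33.8 to 38.5 CPM in Control, 15.8 to 19.1 with Cu_TCPP and 26.8 to 32.0 with Au_TCPP, nearly all from Pdgfra, a growth factor receptor (log2 fold change −1.03 with Cu_TCPP, edgeR adjusted p = 9.2e-06). Of 6 endothelial markers, 5 stayed under 1 CPM, and the list summed to 41.6 to 46.3, 35.3 to 37.6 and 30.4 to 35.8 CPM, nearly all from Eng, a TGF-beta co-receptor. Their part in the collagen values was not tested.

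Among the basement membrane collagens, all 4 tested chains fell with each material, where 21.2% of all genes fell with Cu_TCPP and 34.7% with Au_TCPP. With the length offset 3 of the 4 fell with Au_TCPP, where 34.4% of all genes did. Col4a1 was 464, 451 and 476 CPM in Control, 327, 411 and 355 with Cu_TCPP and 293, 330 and 317 with Au_TCPP. Col4a2, its partner in the commonest collagen IV trimer, was 406, 405 and 429 CPM, then 265, 325 and 275, then 202, 210 and 204. The treated libraries of both genes lay below all Control libraries. Col4a2 fell by 0.52 (SE 0.09) with Cu_TCPP and by 1.01 (SE 0.09) with Au_TCPP (edgeR adjusted p = 0.00042 and 1.8e-07), and Col4a1 by 0.35 (SE 0.10) and 0.57 (SE 0.10) (0.0095 and 9.6e-05). With the length offset the Au_TCPP values were −0.76 for Col4a2 and −0.27 for Col4a1 (edgeR adjusted p = 7.2e-06 and 0.027). The Cu_TCPP call of Col4a1 was lost without Control replicate 3 (edgeR adjusted p = 0.053) or Cu_TCPP replicate 1 (0.066).

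Col4a5, a chain of the minor collagen IV trimers, was 139, 137 and 149 CPM in Control, 52.1, 48.5 and 48.0 with Cu_TCPP and 48.9, 69.2 and 51.0 with Au_TCPP. It was 2.86-fold lower than Control with Cu_TCPP (edgeR adjusted p = 4.4e-07) and 2.51-fold lower with Au_TCPP (1e-07). Col4a6, which shares its trimer, had 2.61 to 4.71 CPM in Control and 0.904 to 2.62 CPM in the treated libraries; with Au_TCPP its fall of 0.91 did not pass with the length offset (edgeR adjusted p = 0.13), without Control replicate 3 (0.11) or without Au_TCPP replicate 1 (0.087). Col4a3 and Col4a4 were not tested.

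Col18a1, the multiplexin whose end fragment is endostatin, was 430, 420 and 462 CPM in Control, 329, 426 and 359 with Cu_TCPP and 321, 296 and 326 with Au_TCPP. Cu_TCPP replicate 2 lay inside the Control range. Against Control only the Au_TCPP change passed, at −0.48 (SE 0.10, edgeR adjusted p = 0.00063), or −0.20 with the length offset (0.10). The Cu_TCPP change, −0.24 (edgeR adjusted p = 0.072), passed without Au_TCPP replicate 2 (0.02) and with library totals (0.02). Between the materials Col18a1 was lower with Au_TCPP, at −0.24 (edgeR adjusted p = 0.045), or 0.02 with the length offset (0.85). Col8a1, a network-forming short-chain collagen, was 328, 319 and 307 CPM in Control, 248, 243 and 247 with Cu_TCPP and 178, 175 and 172 with Au_TCPP. It fell by 0.37 (SE 0.08) and 0.86 (SE 0.08) (edgeR adjusted p = 0.0016 and 1.7e-07), with the 3 groups fully separate.

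Col16a1, a fibril-associated collagen, was 129 to 143 CPM in Control, 71.3 to 86.8 with Cu_TCPP and 68.6 to 73.3 with Au_TCPP, so the treated groups overlapped each other and not Control. Col5a1, a minor fibrillar chain that sets fibril diameter, was 98.9 to 104 CPM, 58.9 to 71.6 and 43.5 to 56.6, and fell with each material. Col7a1, the anchoring-fibril collagen, was 90.1, 90.5 and 84.4 CPM in Control, 48.6, 54.6 and 44.4 with Cu_TCPP and 48.4, 73.3 and 50.3 with Au_TCPP. Its fall of 0.62 with Au_TCPP, where replicate 2 was the highest library, was 0.20 with the length offset (edgeR adjusted p = 0.21). Col6a1, a beaded-filament chain, was 12.3, 10.9 and 12.3 CPM in Control, 2.44, 3.45 and 3.33 with Cu_TCPP and 4.78, 4.44 and 4.73 with Au_TCPP. With Cu_TCPP it was 3.84-fold below Control (edgeR adjusted p = 1.3e-06), the largest fall of a called member in that comparison, and the Au_TCPP libraries lay above all Cu_TCPP ones, 1.51-fold higher (0.01), a call lost without Cu_TCPP replicate 1 (0.068) and with library totals (log2 fold change 0.22, 0.3).

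Col17a1, the transmembrane collagen of hemidesmosomes, was the single collagen that rose against Control without the length offset. It was 1.39, 2.1 and 1.86 CPM in Control, 3.23, 3.03 and 2.37 with Cu_TCPP and 7.62, 2.55 and 5.76 with Au_TCPP. It was 2.96-fold higher with Au_TCPP than in Control (edgeR adjusted p = 0.00079), while Au_TCPP replicate 2 lay within the Cu_TCPP range. The remaining tested collagens were under 4 CPM in every library. Among them Col1a1, a chain of the main fibrillar collagen, was at 1.53 to 2.67 CPM in Control, 0.624 to 1.06 with Cu_TCPP and 0.149 to 1.09 with Au_TCPP; it fell in both comparisons, but the Cu_TCPP call (edgeR adjusted p = 0.03) was lost on leaving out any of 5 libraries: Control replicate 1 or 2, or any Cu_TCPP replicate. Col20a1 fell with Cu_TCPP (edgeR adjusted p = 0.011, lost without Control replicate 2 at 0.075), and Col11a2 and Col12a1 passed only between the materials, where they were higher with Au_TCPP. Of the 29 collagens not tested, Col3a1, Col5a2, Col9a2, Col11a1, Col19a1 and Col26a1 had 0 counts in all libraries; 10 members did in all, and 0 of 147375329 counts allows up to 3 counts, or 0.0204 CPM, counting error only.

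Integrin alpha chains were led by Itga3. It was 1877, 1863 and 1945 CPM in Control, 1763, 2065 and 1898 with Cu_TCPP and 772, 685 and 786 with Au_TCPP. The Cu_TCPP libraries spread around the Control range (log2 fold change 0.01, edgeR adjusted p = 0.93) and the Au_TCPP libraries were all below it, 2.53-fold lower than Control (9.7e-09) and 2.55-fold lower than Cu_TCPP (9.1e-09). With the length offset the fall against Control was 1.14 on the log2 scale (7.2e-08). Per kilobase, Itga3 was 81.6% ± 0.163 of the RNA of all described integrin alpha chains in Control, 78.2% ± 1.92 with Cu_TCPP and 64.1% ± 1.25 with Au_TCPP (SD, n = 3).

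Itga6, the other laminin-binding alpha chain at high level, was 296, 278 and 290 CPM in Control, 413, 383 and 398 with Cu_TCPP and 248, 166 and 279 with Au_TCPP. It rose with Cu_TCPP by 0.47 (SE 0.14; edgeR adjusted p = 0.016), with no overlap between those groups, and the call was lost without Control replicate 2 (0.057) or Cu_TCPP replicate 1 (0.054). Against Control the Au_TCPP change was −0.32 (0.057), which was 0.05 with the length offset and −0.75 with library totals, where it passed (4.4e-05). Itga7, the third of the laminin-binding alpha chains, was 14.7 to 17.6 CPM in Control, 12.6 to 15.5 with Cu_TCPP and 10.3 to 12.8 with Au_TCPP; its fall of 0.49 with Au_TCPP (edgeR adjusted p = 0.005) was 0.17 with the length offset (0.29).

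Among the collagen-binding alpha chains the members differed in direction. Itga2 was 35.9, 32.5 and 34.8 CPM in Control, 50.4, 46.9 and 49.1 with Cu_TCPP and 65.4, 46.4 and 61.2 with Au_TCPP. All treated libraries were above Control, and it rose by 0.50 (SE 0.11) and 0.74 (SE 0.11) (edgeR adjusted p = 0.0025 and 3.6e-05). Itga1 was 5.95, 6.04 and 6.14 CPM in Control, 2.50, 1.49 and 1.30 with Cu_TCPP and 4.63, 2.62 and 3.71 with Au_TCPP. It was 3.43-fold lower with Cu_TCPP (edgeR adjusted p = 0.00011), higher again with Au_TCPP than with Cu_TCPP (log2 fold change 1.05, 0.0037), and its fall of 0.73 against Control with Au_TCPP was 0.07 with the length offset (0.82). Itga10 was 2.69 to 3.51 CPM in Control and 0.822 to 1.24 with Au_TCPP, and 33.5% of its exonic bases lie in another gene, so its counts are uncertain.

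Of the RGD-binding alpha chains, Itgav was 221, 222 and 223 CPM in Control, 285, 256 and 271 with Cu_TCPP and 221, 241 and 244 with Au_TCPP. It rose by 0.29 (SE 0.08) with Cu_TCPP (edgeR adjusted p = 0.012), or 0.052 without Cu_TCPP replicate 1. With Au_TCPP its change against Control was 0.08 (edgeR adjusted p = 0.39), 0.51 with the length offset (2.4e-05) and −0.34 with library totals (0.0016). Between the materials Itgav passed as lower with Au_TCPP (−0.20, edgeR adjusted p = 0.039) and as higher with the length offset (0.21, 0.021). With library totals it was −0.58 (edgeR adjusted p = 1.6e-05). Itga5, the fibronectin receptor chain, was 59.6 to 68.4 CPM in Control, 62.7 to 69.5 with Cu_TCPP and 64.8 to 83.4 with Au_TCPP; its rise of 0.27 with Au_TCPP (edgeR adjusted p = 0.025) turned to −0.15 with library totals and missed the threshold on leaving out any of 6 libraries, with adjusted p from 0.058 to 0.17: Control replicate 1 or 2, Cu_TCPP replicate 1 or 2, or Au_TCPP replicate 1 or 3. Itga2b, the platelet alpha chain, was 6.33 to 7.40 CPM in Control, 2.95 ± 0.0454 (SD, n = 3) with Cu_TCPP and 3.08 to 3.93 with Au_TCPP, and fell with each (edgeR adjusted p = 9.1e-05 and 0.00019).

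Integrin beta chains diverged as well. Itgb1, the common partner, was 577, 544 and 531 CPM in Control, 698, 638 and 698 with Cu_TCPP and 952, 753 and 998 with Au_TCPP. The groups were in this order without overlap, and it rose by 0.30 (SE 0.10) with Cu_TCPP (edgeR adjusted p = 0.032) and by 0.71 (SE 0.10) with Au_TCPP (2.5e-05). The difference between the materials, 0.41 (0.0028), was 0.03 with library totals (0.76). The Cu_TCPP call was lost, with adjusted p from 0.055 to 0.10, on leaving out any Control replicate or Cu_TCPP replicate 1 or 3.

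Itgb4, the hemidesmosome chain, went from 127, 124 and 128 CPM in Control to 46.6, 59.0 and 51.6 with Cu_TCPP and 39.2, 36.0 and 40.3 with Au_TCPP. It was 2.41-fold lower with Cu_TCPP (edgeR adjusted p = 3.5e-07) and 3.27-fold lower with Au_TCPP (1.4e-09). Of its exonic bases 7.66% lie in an antisense gene, as do 5.9% of those of Itgav, and the sources used here do not say whether strand was used in counting. Itgb5 was 230, 262 and 249 CPM in Control, 146, 176 and 164 with Cu_TCPP and 85.5, 100 and 92.6 with Au_TCPP. It fell by 0.61 (SE 0.09) and by 1.41 (SE 0.10) (edgeR adjusted p = 0.00019 and 1.3e-08), and the offset left the second at 1.46; at 3553 nt it is among the shorter members. Its share of the beta RNA per kilobase went from 24.3% ± 1.51 in Control to 17.9% ± 1.73 and 8.15% ± 1.31 (SD, n = 3), and that of Itgb4 from 6.28% ± 0.147 to 2.93% ± 0.373 and 1.7% ± 0.0489; every library kept this order, with an exact permutation p of 0.1 for each pair of groups.

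Itgb2 and Itgb7, beta chains best known from leukocytes, followed another course. Itgb2 was 97.8, 97.6 and 98.6 CPM in Control, 62.3, 61.5 and 67.8 with Cu_TCPP and 107, 106 and 107 with Au_TCPP. Itgb7 was 82.4, 87.1 and 89.0 CPM, then 36.5, 46.0 and 40.6, then 91.5, 109 and 95.6. Both fell with Cu_TCPP, by 0.62 (SE 0.07) and 1.07 (SE 0.10) (edgeR adjusted p = 2.1e-05 and 2.4e-06), and neither passed with Au_TCPP (0.12 and 0.20 on the log2 scale, adjusted p = 0.15 and 0.082; with library totals −0.30, which passed at 0.0021, and −0.22). Their leukocyte alpha partners Itgal, Itgam, Itgax, Itgad and Itga4 were not tested, with the defining leukocyte gene Ptprc at 0.0368 CPM in Control, 0.0919 with Cu_TCPP and 0 with Au_TCPP. The macrophage list, of which 3 of 9 genes were tested, summed to 40.8 to 44.1 CPM in Control, 27.8 to 31.3 with Cu_TCPP and 79.8 to 98.3 with Au_TCPP, the rest of the list staying under 1 CPM. Cd68, a lysosomal gene, was 25.2, 27.1 and 29.1 CPM in Control, 9.13, 11.5 and 13.3 with Cu_TCPP and 55.5, 75.2 and 53.3 with Au_TCPP, so it fell with the first material and rose with the second (edgeR adjusted p = 2.4e-05 and 3.7e-06). Cd14, a lipopolysaccharide co-receptor, was 11.7 to 12.6, 11.2 to 12.0 and 18.4 to 22.1 CPM and rose 1.68-fold with Au_TCPP (4e-05 by edgeR). Mrc1, the mannose receptor, rose with both (edgeR adjusted p = 0.016 and 0.0081), with Au_TCPP replicate 2 inside the Control range at 1.82 CPM. The part of these genes in the course of Itgb2 and Itgb7 was not tested. Itgae, the alpha partner of Itgb7 in mucosal lymphocytes, was 0.432 to 1.17 CPM in Control, 1.27 to 1.93 with Cu_TCPP and 0.0728 to 0.448 with Au_TCPP, and Itgb6 did not pass in any comparison.

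**Figure D4:**
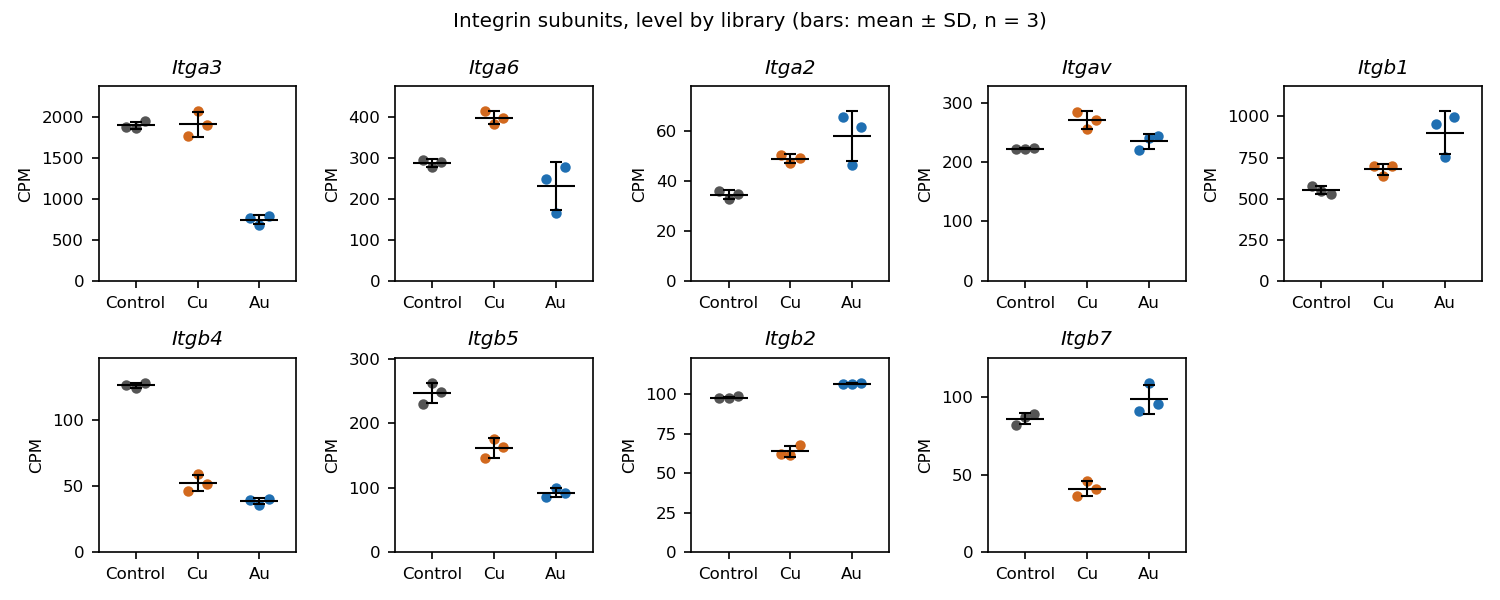
Level of 9 integrin subunits in each library (points; y axis CPM from 0, its own scale in each panel; bars are mean ± SD, n = 3). Itga3 drops in the Au_TCPP libraries alone, Itgb4 and Itgb5 drop in both treated groups, Itgb1 steps up on this TMM scale (between the materials by 0.03 with library totals), and Itgb2 and Itgb7 are low in the Cu_TCPP libraries.

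Log2 fold change moved with gene length in the comparisons that include Au_TCPP. For Cu_TCPP against Control the median of all genes lay between −0.03 and 0.03 in every length class. In the class from 6000 to 8000 nt, which held 14 members, the members' median was −0.67 with Cu_TCPP and −0.88 with Au_TCPP, where all 1642 genes had 0.03 and −0.21. In the class from 8000 to 12000 nt, with 9 members, it was −0.36 and −0.62, where all 1399 genes had −0.02 and −0.39. The other classes with members did not all show this. From 4000 to 6000 nt the 9 members had 0.01 with Cu_TCPP and −0.98 with Au_TCPP, where all genes had 0.00 and −0.18. The 3 members from 2000 to 4000 nt had −0.62 and 0.12 (all genes −0.02 and 0.10), and the 2 over 12000 nt had −1.60 and 0.14 (−0.03 and −0.60). The members that had fallen with Au_TCPP and did not pass with the offset were Col4a6, Col7a1, Col18a1, Itga1 and Itga7, and Itgav and Col12a1 then passed as higher.

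**Figure D5:**
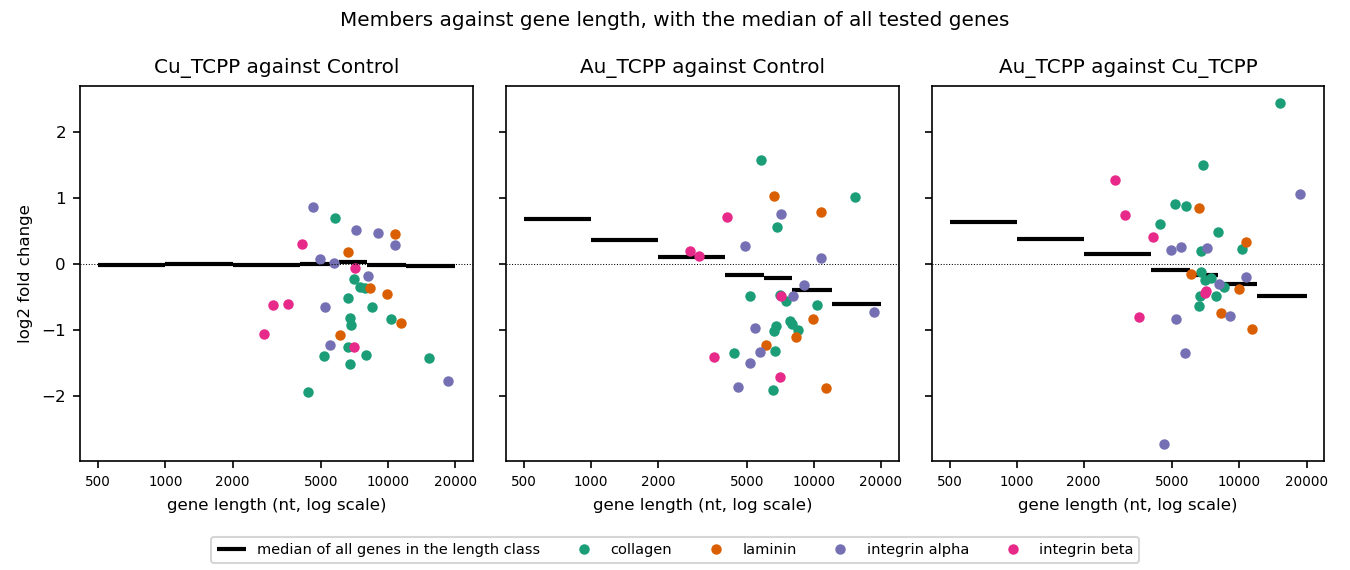
Log2 fold change of the 37 tested members (points, by family) against gene length (x axis, nt, log scale) in the 3 comparisons, with the median of all tested genes in each length class as black bars. The bars are flat near 0 with Cu_TCPP and slope from 0.67 to −0.60 with Au_TCPP against Control, and most collagens lie below the bar of their class in both comparisons with Control.

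Of a list of 29 genes that modify or process collagen 21 were tested; 4 rose and 7 fell with Cu_TCPP, and 11 rose and 8 fell with Au_TCPP (of all genes 19.2% rose and 21.2% fell with the first, and 34.4% and 34.7% with the second). P4ha2, a prolyl hydroxylase subunit, was 14.2, 14.0 and 15.9 CPM in Control, 23.0, 23.8 and 21.2 with Cu_TCPP and 114, 154 and 109 with Au_TCPP, which is 8.54-fold above Control (edgeR adjusted p = 1.4e-10). P4ha1 rose from 129 to 135 CPM in Control to 404 to 510 with Au_TCPP, and the lysyl hydroxylase Plod2 from 108 to 109 CPM to 481 to 656. Serpinh1, the collagen chaperone of the endoplasmic reticulum, was 315 to 348 CPM in Control, 307 to 350 with Cu_TCPP and 1127 to 1575 with Au_TCPP. These genes were raised in the same libraries in which 11 collagens were lower than in Control (8 with the length offset). Of the 21 tested genes of the list 8 fell there, and a link to the collagens was not tested. Bmp1 and Pcolce, which cut procollagen and enhance that cut, fell with Cu_TCPP by 0.68 each (edgeR adjusted p = 7.7e-05 and 9.1e-05), and with Au_TCPP Bmp1 fell by 0.78 (by 0.42 with the length offset) and Pcolce rose by 0.46, a call lost with library totals (0.03, adjusted p = 0.73).

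Of 12 basement membrane partners 8 were tested, of which 4 fell and none rose with Cu_TCPP, and 7 fell and 1 rose with Au_TCPP. Of all genes 21.2% fell and 19.2% rose with the first material, and 34.7% and 34.4% with the second. Hspg2, the perlecan core protein, was 793 to 822 CPM in Control, 619 to 719 with Cu_TCPP and 135 to 244 with Au_TCPP. Agrn was 628 to 655, 417 to 453 and 183 to 305 CPM, and Dag1, the dystroglycan that binds laminin, 296 to 303, 278 to 306 and 77.1 to 113 CPM. All 3 fell with Au_TCPP (edgeR adjusted p = 9.2e-08, 4.9e-07 and 1.4e-08). Sparc, a collagen-binding secreted protein, went the other way: it fell by 0.61 with Cu_TCPP and rose by 0.50 with Au_TCPP (edgeR adjusted p = 1e-04 and 0.00015), the rise being 0.07 with library totals (0.45). Pxdn, the peroxidase that crosslinks collagen IV, was 137 to 147 CPM in Control, 157 to 168 with Cu_TCPP and 82.2 to 91.1 with Au_TCPP, and was lower with Au_TCPP than with Cu_TCPP by a log2 fold change of −0.94 (edgeR adjusted p = 1.1e-07; −0.56 with the length offset). Papln, a matrix glycoprotein gene at low level, was 0.889 to 1.59 CPM in Control, 0.0567 to 0.265 with Cu_TCPP and 0.299 to 0.631 with Au_TCPP, and fell with each (edgeR adjusted p = 0.00045 and 0.0089).

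All 30 integrin adaptor and focal adhesion genes of a list were tested; 6 rose and 8 fell with Cu_TCPP and 12 rose and 11 fell with Au_TCPP. These were 20% and 26.7%, and 40% and 36.7%, near the shares of all genes given above, and the second split was 13 and 6 with the length offset and 5 and 17 with library totals. Tns4, a tensin, was 674 to 685 CPM in Control, 646 to 702 with Cu_TCPP and 239 to 258 with Au_TCPP. Tln2, a talin that links integrin tails to actin, and Tns2 fell by 1.75 and 1.18 with Au_TCPP (edgeR adjusted p = 8.7e-10 and 1.3e-08), or by 1.11 and 1.00 with the length offset. Plec, the plectin that ties Itgb4 to keratin filaments, rose by 0.95 with Cu_TCPP and fell by 0.86 with Au_TCPP (2.4e-05 and 1.1e-05 by edgeR), but the second call was lost with the length offset (−0.23, adjusted p = 0.11). Bcar1 rose and Cd81 fell with Cu_TCPP, by 0.76 and 0.69 on the log2 scale. Of 6 other collagen receptors 3 were tested: Ddr1 fell by 0.46 with Cu_TCPP and by 1.46 with Au_TCPP (edgeR adjusted p = 0.0095 and 1.9e-07), Ddr2 fell by 0.84 with Au_TCPP (3.4e-06; by 0.46 with the length offset) and Cd44 rose with each material, by 0.33 and 0.54 (0.048 and 0.0014), the second call being lost with library totals (0.11, 0.36).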

How the data were processed

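Polyadenylated RNA of 9 4T1 libraries (Control, Cu_TCPP and Au_TCPP, 3 each) was sequenced by the submitters. The deposited table holds whole-number counts per gene and library and FPKM values that the authors scaled per kilobase and per library; its group means and comparisons were not used here. Bowtie 0.12.9, Cufflinks 2.1.1, HTSeq and mm10 are named in the submitters' processing notes, which do not say whether counting used strand. Differences were tested on the deposited counts with the quasi-likelihood method of edgeR 4.0.16 under R 4.3.3 (TMM, filterByExpr, all 9 libraries in 1 fit) over 13915 of 54532 genes, with Benjamini-Hochberg adjustment over these 13915 and a threshold of 0.05. CPM are edgeR's cpm values on TMM-scaled library sizes and RPKM are CPM per kilobase of the deposited gene length. The biological coefficient of variation was 10.6%, and arms of 3 libraries limit the precision. Shares were compared by exact two-sided permutation tests. The length offset was a spline with 5 degrees of freedom fitted to genes with a mean count of at least 50. Alternatives were other scalings, filters, DESeq2 1.42.0, limma 3.58.1 on log2(FPKM + 1) and log2(FPKM + 0.1), a fit of only the 6 libraries compared, leaving out each library, and the replicate number as a block. The scripts were tested on simulated data. Sequences were from RefSeq (GRCm38.p6), and the coordinates of all 80 members matched GENCODE M21. A further gene taken by the naming rule is not reported here and was left out of the members' counts. Replicate numbers gave no sign of pairing between the libraries. Members and gene lists were chosen with earlier results of these data known. Genes named with values in each library are the called members with at least 5 CPM in a group and the highest per kilobase in Control; of the other lists, the 3 called genes with the smallest p in each comparison were named, with a few added after their values were seen.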

Additional observations from a re-analysis of the deposited data

How the results depend on the processing

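Of the members' log2 fold changes recomputed under the alternatives, 1898 kept their direction and side of the threshold, 64 passed it newly, 58 no longer passed and 25 turned in sign; the cause was not tested except where named. An absolute log2 fold change of at least 1 left 0 members higher and 10 lower with Cu_TCPP (1146 genes called in all), 2 and 13 with Au_TCPP (4003), and 4 and 2 between the materials (3729). Leaving out a library gave 2 to 7 members higher with Cu_TCPP. Between the materials, library totals and limma on FPKM with either pseudocount gave 6 members higher, and the length offset gave 16 higher and 8 lower. With library totals, whose construction lowers all Au_TCPP values, log2 fold changes turned to −0.15 (Itga5), −0.34 (Itgav), −0.30 (Itgb2) and −0.22 (Itgb7) for Au_TCPP against Control, to −0.18 (Col4a5), −0.14 (Col7a1), −0.14 (Itga2), −0.12 (Itga2b), −0.17 (Itga5) and −0.0489 (Lama3) between the materials, and to −0.0386 for Itga3 with Cu_TCPP. With the length offset they turned to 0.0505 (Itga6), −0.0228 (Itgb2) and −0.00565 (Itgb7) against Control and to 0.13 (Col16a1), 0.0248 (Col18a1), 0.0669 (Col4a1), 0.0099 (Itga7), 0.21 (Itgav), 0.00205 (Lamb1) and 0.0657 (Lamb2) between the materials. Among these Itgav passed on both sides, as lower without the offset (edgeR adjusted p = 0.039) and as higher with it (0.021). Leaving out each library gave −0.0353 to 0.0743 for Itga3 and −0.18 to 0.0254 for Itgb6 with Cu_TCPP, and −0.0243 to 0.24 for Col4a5 and −0.0318 to 0.29 for Col7a1 between the materials. Same-numbered libraries correlated at −0.0846 to 0.0897, so the numbers gave no sign of pairing; a replicate block gave 5 members higher and 22 lower with Cu_TCPP, 6 and 24 with Au_TCPP and 10 and 12 between the materials, moving the calls of Col12a1 (Cu_TCPP, adjusted p = 0.048), Itga6 (Au_TCPP, 0.027), Col18a1 and Itgav (between the materials, 0.061 and 0.059) by edgeR. Depth limits the 43 untested members; without Au_TCPP replicate 2, Col15a1 and Itga8 entered the test, and Itga8, at 0 in the Cu_TCPP libraries and at most 0.647 CPM elsewhere, passed for Cu_TCPP against Control and between the materials (edgeR adjusted p = 0.00059 and 0.018).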
